A study of Homo sapiens with 6 samples.

Results

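The kallikrein-related peptidases are secreted serine proteases encoded side by side on chromosome 19. The genes described here are the 10 members *KLK5*, *KLK6*, *KLK7*, *KLK8*, *KLK9*, *KLK10*, *KLK11*, *KLK12*, *KLK13* and *KLK14*, taken by symbol and position out of 58884 genes in the count tables. RNA was sequenced from HSC4, a cell line established from a human squamous cell carcinoma of the mouth, so the data describe 1 line. There were 3 libraries from cells given 50 μM DAPT for 24 h and 3 control libraries, which the study's methods describe as receiving the DMSO vehicle. The series' design text names growth medium and DAPT but no vehicle, and the control columns are named with the letters GM, which no source explains. If they stand for growth medium without vehicle, DAPT and its solvent cannot be told apart. DAPT inhibits γ-secretase, the membrane protease complex that frees the signalling part of Notch receptors, and the comparison asked which transcripts differed after it was blocked.

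In stratified epithelium, kallikrein-related peptidases are secreted as inactive precursors and switched on by cleavage, partly by each other and partly by membrane-anchored proteases. *KLK5* and *KLK7* are best known for cutting the junction proteins that hold the outermost cells of the epidermis together. Most members cut after basic residues like trypsin, whereas *KLK7* cuts after bulky aromatic residues like chymotrypsin. Their activity is held in check by secreted inhibitors such as the protein encoded by *SPINK5*.

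Read counts per library ran from 12276313 to 16317672. With these depths a count of 3 reads, taken as the smallest signal and covering counting error only, corresponded to between 0.187 and 0.248 CPM, the count scaled to the sequencing depth of its library and adjusted for composition by TMM. Markers of squamous epithelium were present, with *KRT5*, a keratin of basal epithelial cells, at 2701 ± 61.9 CPM (SD, n = 3) in the controls and 1315 ± 43.4 CPM (SD, n = 3) with DAPT. Of the 7 markers of this list, 5 were lower with DAPT and 1 was higher at an adjusted p under 0.05, beside 18.0% lower and 17.2% higher among all tested genes. Their sum was between 5637 and 5707 CPM in the controls and between 3747 and 3900 CPM with DAPT, and its part in the kallikrein values was not tested. One library stood apart: the 5 fibroblast markers *COL1A1*, *COL1A2*, *DCN*, *LUM* and *PDGFRB* summed to 522 CPM in control replicate 1 and to between 50.0 and 58.1 CPM in the other 5 libraries. Their part in the kallikrein values was not tested beyond leaving that library out, and each call of a kallikrein gene, a neighbour or a gene of the inhibitor, activation and substrate lists that changed without it is given both ways. The T cell marker *CD3E* was at 0 reads in every library, and the 5 leukocyte markers together stayed between 0.146 and 0.361 CPM. The 4 endothelial markers summed to between 1.24 and 1.68 CPM in the controls and between 2.41 and 2.92 CPM with DAPT, and the 3 melanocyte markers to between 1.23 and 2.96 CPM over all 6 libraries. Of the endothelial markers only *CDH5* rose clearly, from 0.328 ± 0.171 to 1.81 ± 0.485 CPM (SD, n = 3 each). *VWF* went from 1.05 ± 0.242 to 0.792 ± 0.221 CPM (SD, n = 3 each), and *KDR* and *PECAM1* held at most 3 reads in any library. The Notch target *HES1*, a check of the treatment, was at 42.5, 50.3 and 48.2 CPM in the controls and at 27.9, 27.2 and 27.3 CPM with DAPT.

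With DAPT, *KLK10*, *KLK7* and *KLK8* were lower, each at between 60.5% and 69.4% of the control mean, and no member was higher. *KLK6* and *KLK5* were detected and did not pass the test. *KLK11* held few reads and was lower in every DAPT library than in any control library, and *KLK9*, *KLK12*, *KLK13* and *KLK14* were at or near the limit of detection. In the test across 15001 genes, 3 of the 5 members that passed the filter on low counts had an adjusted p under 0.05 and were lower, where 18.0% of all tested genes were lower and 35.2% were called in either direction. No member was called with at least a 2-fold change, beside 1.77% of all tested genes lower and 0.600% higher by that measure. The 3 were also the tested members whose groups did not overlap, as in 22.7% of all tested genes in the lower direction and 23.6% in the higher. In bulk RNA, fewer cells that express a gene and less RNA per cell cannot be told apart. The median log2 fold change of the 5 tested members was -0.52, against 0.01 over all tested genes. The other 5 of the 10 members were too low to be tested. Labels and methods do not say that the libraries came from separate cultures, so the p-values measure the spread between these libraries, which may be technical.

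*KLK10* was the most abundant member, and its product, unlike that of its neighbours, is known mainly as a candidate tumour suppressor. It held 16.8, 17.3 and 18.8 CPM in the control libraries (replicates 1, 2 and 3) and 12.3, 12.4 and 11.9 CPM in the DAPT libraries. The DAPT values lay within a narrow band, and all were below the lowest control. The means were 17.6 ± 1.06 CPM and 12.2 ± 0.279 CPM (SD, n = 3 each). The difference was -0.52 on the log2 scale, with a standard error of 0.09 and a 95% interval from -0.72 to -0.33 (adjusted p = 0.000174 by the quasi-likelihood test of edgeR, Benjamini-Hochberg adjusted over all tested genes). This was the best measured member, with between 155 and 269 reads per library, and it stayed below an adjusted p of 0.05 in all 15 alternative fits. A noncoding gene on the opposite strand covers 6.32% of the exonic bases of *KLK10*, and reads were counted by strand.

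*KLK7*, the chymotrypsin-like protease of shed skin cells, was at 4.17, 3.83 and 4.89 CPM in the controls and at 3.12, 3.00 and 2.23 CPM with DAPT. The groups did not overlap, and DAPT replicate 3 was the lowest library. The log2 fold change was -0.61 (standard error 0.19, 95% interval from -1.0 to -0.22, adjusted p = 0.0151 from the same edgeR test and adjustment). The call rested on 2 libraries: the adjusted p was 0.0679 without control replicate 3 and 0.0813 without DAPT replicate 3 in edgeR. It was also lost in DESeq2, at an adjusted p of 0.0601, while the log2 fold change there was -0.62.

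*KLK8*, also named neuropsin, is a trypsin-like protease of skin and brain. It was at 3.92, 3.25 and 2.73 CPM in the controls and at 1.43, 2.49 and 2.07 CPM with DAPT. Its groups did not overlap, but the highest DAPT library came close to the lowest control. The log2 fold change was -0.75 (standard error 0.23, 95% interval from -1.23 to -0.28, adjusted p = 0.0137, edgeR). Without control replicate 1, the library with the raised fibroblast markers, it was -0.60 with an adjusted p of 0.0651 in edgeR. Without DAPT replicate 1 it was -0.54 (adjusted p = 0.0910, edgeR), and DESeq2 gave an adjusted p of 0.0562. In all, *KLK10* and *KLK7* were the 2 members called lower when control replicate 1 was left out, against 19.1% of all genes tested in that fit.

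The value of *KLK8* came from part of the gene. Other annotated genes of the same strand, *KLK9* and the overlapping gene ENSG00000269741, cover 40.1% of its exonic bases, and reads falling there were assigned to no gene. For *KLK9* the share was 96.3%, which left 53 of 1443 exonic bases countable. *KLK9* was listed with 1, 2 and 1 reads in the controls and 0 in each DAPT library, at or under 3 reads everywhere, so no fold is given and its level cannot be set beside that of the other members.

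*KLK6*, a trypsin-like protease found in brain and often raised in carcinomas, was at 4.86, 5.20 and 5.47 CPM in the controls and at 5.33, 4.46 and 3.995 CPM with DAPT. The groups overlapped, with DAPT replicate 1 within the control range. The log2 fold change was -0.16, with a 95% interval from -0.48 to 0.17 (adjusted p = 0.463, edgeR). It was not called in any of the 15 alternative fits, and its interval includes both no change and a decrease nearly as large as the estimate for *KLK10*.

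*KLK5*, the trypsin-like protease that activates other members, was at 0.934, 1.23 and 0.663 CPM in the controls and at 0.909, 0.585 and 1.38 CPM with DAPT. The highest and the lowest of these 6 values were both DAPT libraries. With 8 to 18 reads per library its 95% interval was wide, from -0.79 to 0.79 on the log2 scale (log2 fold change 0.00081, adjusted p = 0.999, edgeR), and a change of the size seen in the other members was not detectable at this depth.

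*KLK11*, a trypsin-like protease also named hippostasin, held 12, 8 and 10 reads in the controls and 5, 1 and 6 reads with DAPT. Every DAPT library was below every control library, at 0.325, 0.0731 and 0.461 CPM against 0.747, 0.578 and 0.828 CPM. The pooled reads, 12 with DAPT against 30 in the controls, gave a ratio of 0.399 with an exact 95% binomial interval from 0.186 to 0.802 that covers counting error only. The gene did not pass the low-count filter. In the fit without that filter, its log2 fold change was -1.30 (standard error 0.52) with an adjusted p of 0.0684 in edgeR over 29228 genes. When DAPT replicate 3 was left out the gene passed the filter and was called lower, with a log2 fold change of -1.75 (adjusted p = 0.0379, edgeR). It also passed the filter without DAPT replicate 2, where the log2 fold change was -0.87 and the test was not passed (adjusted p = 0.212, edgeR). In both fits *KLK11* passed the filter through control libraries alone, as no DAPT library reached the minimum count of 10. The call without DAPT replicate 3 is therefore not independent support for a decrease.

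The last 3 members were at the limit. *KLK14*, which acts with *KLK5* on epidermal junctions, held 1, 0 and 1 reads in the controls and 1, 3 and 1 with DAPT. *KLK13* held 2, 1 and 0 reads in the controls and 2, 0 and 1 with DAPT. *KLK12* had 0 reads in all 6 libraries. No library exceeded 3 reads for any of these genes, so a difference was not detectable at this depth.

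**Figure D1:**
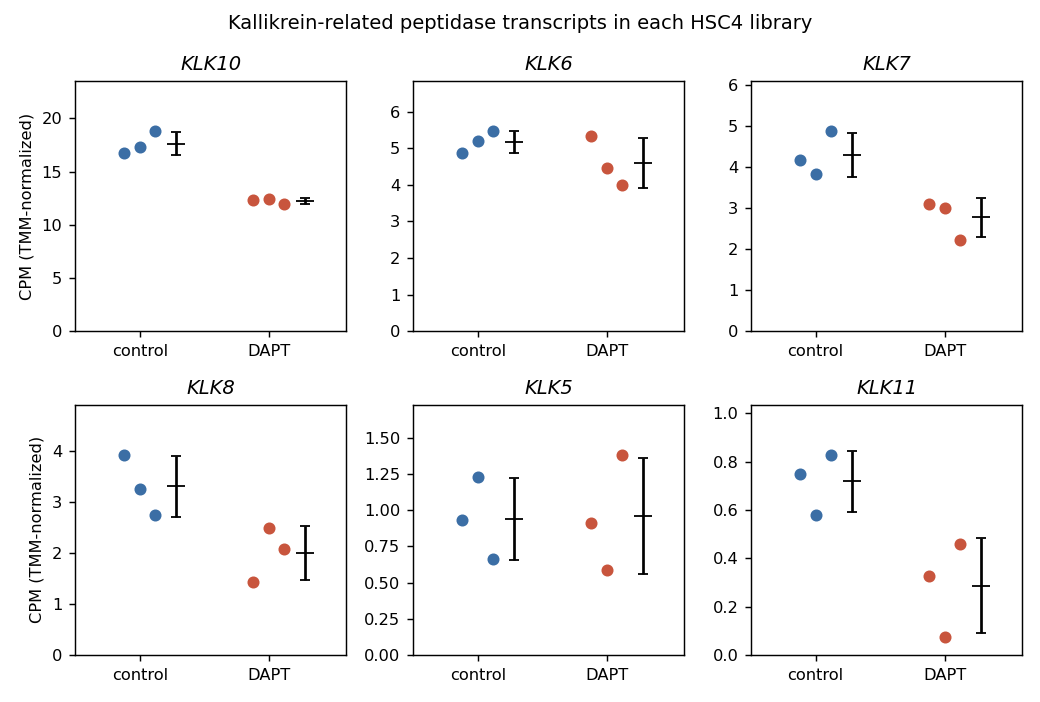
TMM-normalized CPM (vertical axes from 0, one scale per gene) of 6 members in the 3 control and 3 DAPT libraries, 1 point per library, with the mean and SD beside each group. *KLK10*, *KLK7*, *KLK8* and *KLK11* show no overlap between groups, while *KLK6* and *KLK5* do overlap. *KLK11* was not tested, at 1 to 12 reads per library.

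Summed over the 10 members, the level was 31.6, 31.6 and 33.5 CPM in the controls and 23.6, 23.3 and 22.2 CPM with DAPT, with means of 32.3 ± 1.10 and 23.0 ± 0.745 CPM (SD, n = 3 each). *KLK10* supplied the largest share of these reads in every library, from 53.0% to 56.0% in the controls and from 52.2% to 53.6% with DAPT. For single libraries the exact 95% binomial interval of that share was several points wide on each side, for example from 48.5% to 57.4% in control replicate 1, so the shares did not separate the groups. In observed reads, not corrected for gene length, *KLK10* thus made up most of the summed level. Intervals such as that of control replicate 1 include a share of 50%.

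Whether the called members fell relative to *KLK6* was asked within each library, where the scaling between libraries cancels. These 3 ratios were chosen after the values were seen. The ratio of *KLK7* to *KLK6* reads was 0.859, 0.736 and 0.894 in the controls and 0.585, 0.672 and 0.558 with DAPT, without overlap. For *KLK10* it was 3.45, 3.33 and 3.44 in the controls and 2.32, 2.79 and 2.98 with DAPT, again without overlap. The ratio of *KLK8* overlapped, at 0.808, 0.625 and 0.50 against 0.268, 0.557 and 0.519. The two-sided exact permutation p was 0.1 for *KLK7* and *KLK10*, the smallest that 3 against 3 libraries allow, and 0.3 for *KLK8* (0.15, 0.15 and 0.3 after Benjamini-Hochberg adjustment over the 3 ratios). With 3 libraries a group this test could not have passed 0.05, so whether *KLK6* responded differently from the called members was not settled.

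**Figure D2:**
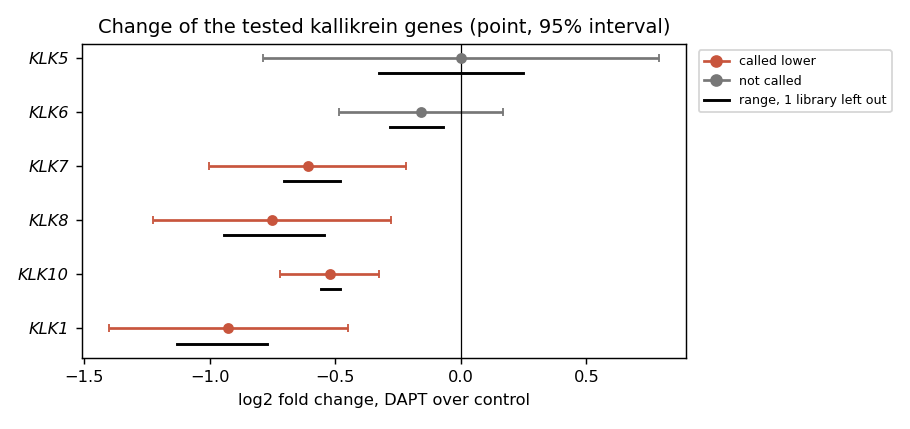
Log2 fold change of DAPT over control (horizontal axis) for the 5 tested members and *KLK1*, with the 95% interval from edgeR's fit as a bar and, in black below it, the range over the 6 fits that left out 1 library. The interval of *KLK10* is the narrowest, and those of *KLK6* and *KLK5* include 0.

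Read counts grow with gene length, so levels were compared between members per kilobase of countable exon, leaving out bases shared with another gene of the same strand. In the controls, *KLK10* was highest at 4.64 ± 0.278 CPM per kb, followed by *KLK8* at 2.95 ± 0.534 and *KLK6* at 2.62 ± 0.155 CPM per kb (SD, n = 3 each). *KLK8* and *KLK6* overlapped in their 3 control values and cannot be ordered. Next came *KLK7* at 1.75 ± 0.221 CPM per kb, *KLK5* at 0.570 ± 0.171 CPM per kb and *KLK11* at 0.231 ± 0.0411 CPM per kb (SD, n = 3 each), each step without overlap of the libraries. *KLK13* and *KLK14* lay below 0.07 CPM per kb in every control library and overlapped.

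With DAPT, *KLK10* remained first at 3.22 ± 0.0736 CPM per kb, and *KLK6* was next at 2.32 ± 0.342 CPM per kb (SD, n = 3 each). *KLK8* followed at 1.79 ± 0.477 CPM per kb (SD, n = 3) with values that overlapped those of *KLK6*, so these genes cannot be ordered in either group. *KLK7* was at 1.14 ± 0.197 and *KLK5* at 0.580 ± 0.243 CPM per kb (SD, n = 3 each). *KLK11* was lowest of the 6 at 0.0920 ± 0.0632 CPM per kb (SD, n = 3), below every *KLK5* library.

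The 10 members occupy 141 kb of chromosome 19 in the GRCh38 coordinates of the count tables, from 50943303 to 51084245, and all 10 lie on the minus strand. *KLK14* (51077495 to 51084245) is the first in the direction of transcription and *KLK5* (50943303 to 50953093) the last. The genes with more than 3 reads in any library lie next to each other, apart from *KLK9*, from *KLK11* (51022216 to 51028039) through *KLK10* (51012739 to 51020175), *KLK9* (51002508 to 51009634), *KLK8* (50996007 to 51002711), *KLK7* (50976468 to 50984099) and *KLK6* (50958631 to 50969673) to *KLK5*. The called members *KLK10*, *KLK8* and *KLK7* sit in the middle of this row, with only *KLK9*, which could hardly be counted, between them. On the side of *KLK14*, *KLK12*, *KLK13* and *KLK14* were at or near 0.

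**Figure D3:**
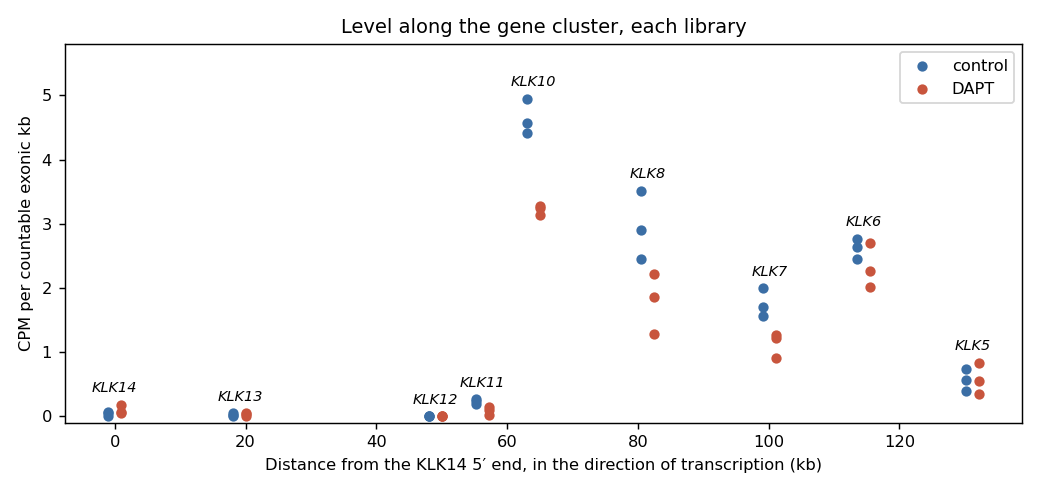
Level in each library as CPM per countable exonic kb (vertical axis, linear) against distance from the 5′ end of *KLK14* in the direction of transcription (horizontal axis, kb), for 9 members. *KLK9* is left out because 53 of its bases could be counted. The levels rise from near 0 at *KLK12* to their highest at *KLK10*, and DAPT points lie below control points at *KLK10*, *KLK8*, *KLK7* and *KLK11*.

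Of the 6 other kallikrein genes of the cluster, *KLK15*, *KLK3*, *KLK2*, *KLK4* and *KLKP1* had 0 reads in all libraries. *KLK3* encodes the prostate-specific antigen. *KLK1* (50819146 to 50823787), the tissue kallikrein that releases kinins, was detected and fell. *KLK1* was at 3.86, 3.18 and 2.73 CPM in the controls and at 2.14, 1.68 and 1.31 CPM with DAPT, without overlap. The difference was -0.93 on the log2 scale (adjusted p = 0.00328, edgeR; standard error 0.23), and -0.77 without control replicate 1 (adjusted p = 0.0194, edgeR). It was called in all 15 alternative fits.

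Within 250 kb on either side of the members, the tables list 47 other genes, and 4 of these passed the low-count filter. Besides *KLK1*, *CLEC11A*, which encodes a secreted lectin-like growth factor, was called lower although its groups overlapped, with a log2 fold change of -0.83 (adjusted p = 0.0459, edgeR). It was called in 5 of 15 alternative fits, and the value became -0.54 (adjusted p = 0.258, edgeR) without control replicate 1. *CTU1*, a tRNA-modifying enzyme next to *KLK14*, did not pass (log2 fold change -0.22, adjusted p = 0.321, edgeR), nor without control replicate 1 (-0.34, adjusted p = 0.131, edgeR). *C19orf48P* did not pass either (-0.15, adjusted p = 0.162, edgeR), but it did without control replicate 1 (-0.25, adjusted p = 0.00588, edgeR).

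Sequence just ahead of the genes is shown for *KLK7*, called lower in the main fit, and for *KLK6*, which did not pass the test. They are the 2 neighbours with a RefSeq promoter entry and different calls in that fit. RefSeq windows (GRCh38.p14) were found for 9 of the 10 members, not for *KLK8*. *KLK7* has several windows, and the one furthest upstream was used. The part before the first annotated exon in the count tables is printed 5′ to 3′ on the minus strand. The letters TGGGAA, the core bound by the Notch partner RBPJ, were searched on both strands in the 250 bases ahead of each start, and no match falls in these sequences, which are therefore all in lower case.
KLK7 chr19:50984100-50984314: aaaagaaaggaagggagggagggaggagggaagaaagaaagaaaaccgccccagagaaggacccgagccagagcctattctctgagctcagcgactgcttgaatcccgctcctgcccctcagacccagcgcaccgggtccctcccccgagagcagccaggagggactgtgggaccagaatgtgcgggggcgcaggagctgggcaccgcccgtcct
KLK6 chr19:50969674-50969841: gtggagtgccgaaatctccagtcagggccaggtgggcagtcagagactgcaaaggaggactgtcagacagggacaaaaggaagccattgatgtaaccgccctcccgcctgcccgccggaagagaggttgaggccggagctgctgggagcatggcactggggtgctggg

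The *KLK10* window from 51019862 to 51020111 has 2 matches to these letters, at 198 and 115 bases before its start. The other *KLK10* window, from 51019710 to 51019959, has 0. For each match 30 bases around it are printed with the match in capitals.
KLK10 chr19:51020042-51020071: ctaggtatgcacTTCCCAttgatttcctct
KLK10 chr19:51019959-51019988: tctccccgcgccTGGGAAgccttcttggca
The first match is in the reverse orientation and the second as written, and both lie inside the span that the count tables annotate for *KLK10*. Of the 16 member windows, 5 held TGGGAA, from *KLK9*, *KLK10*, *KLK12* and *KLK14*, of which *KLK10* alone was tested and called. Those 5 include 2 overlapping windows of *KLK14*, and 20.8% of all 35116 windows of this length held the letters. The letters TGANTCA, the AP-1 motif, were in 0 of the 16 member windows and in 6.57% of all windows. TATAAA was also in 0 of the 16 and in 10.7% of all windows. These matches are descriptions of letters and not binding sites.

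Most measured inhibitors of these proteases were lower with DAPT. Of 14 genes on a list of kallikrein inhibitors, 7 were tested, 6 had an adjusted p under 0.05 and were lower with DAPT and 0 were higher, beside 18.0% of all genes lower. Their median log2 fold change was -0.61. The list was drawn up with earlier results of these data known, so this count is not independent evidence of a direction. The same 6 were called lower without control replicate 1 and in DESeq2. With at least 10 reads required of every library 5 were called lower, as *SERPINA5* was then not tested.

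*PI3*, which encodes elafin, an inhibitor of *KLK7* and of elastases, fell most, from 9.90, 11.05 and 10.3 CPM in the controls to 2.92, 3.36 and 3.304 CPM with DAPT. This was a difference of -1.70 on the log2 scale (adjusted p = 4.28e-09, edgeR). *SERPINA5*, the protein C inhibitor, had few reads and fell by 1.52 on the log2 scale (standard error 0.39, adjusted p = 0.00455, edgeR), from 1.505 ± 0.357 to 0.537 ± 0.341 CPM (SD, n = 3 each). It passed the low-count filter through its control libraries, and held 3, 12 and 7 reads in the DAPT libraries. *PI3* and *SERPINA5* were the 2 inhibitors with at least a 2-fold decrease.

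*SLPI*, the secretory leukocyte protease inhibitor, went from 46.5 ± 4.23 to 28.7 ± 0.910 CPM (SD, n = 3 each). On the log2 scale this was -0.69. *SERPINF2*, the plasmin inhibitor, went from 14.6 ± 1.78 to 9.54 ± 0.806 CPM, *SERPINA1* from 21.0 ± 2.30 to 15.4 ± 2.24 CPM and *SERPINB6*, an intracellular inhibitor of *KLK8*, from 96.2 ± 0.591 to 71.8 ± 2.14 CPM (SD, n = 3 each). Their log2 fold changes lay between -0.61 and -0.42.

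*SPINK5*, the inhibitor whose loss causes Netherton syndrome, was at 5.85, 5.92 and 6.71 CPM in the controls and at 5.39, 5.19 and 4.84 CPM with DAPT. The groups did not overlap, as in 22.7% of all tested genes in this direction, but the test was not passed (log2 fold change -0.25, 95% interval from -0.55 to 0.04, adjusted p = 0.175, edgeR). The other 7 inhibitors, among them *SPINK6*, *SPINK9* and *A2ML1*, were too low to be tested, and 3 of these had 0 reads in every library.

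The activation list held 13 genes, for activating proteases, for related proteases not all of which are activators, and for inhibitors of these. Of the 13, 7 were tested, 2 were lower and 2 were higher, beside 18.0% lower and 17.2% higher among all tested genes. The count of higher genes was 1 in DESeq2 and between 0 and 1 with any 1 library left out. *TMPRSS11E*, a membrane protease of squamous epithelium, fell from 20.7, 17.6 and 18.6 CPM to 7.15, 6.80 and 6.84 CPM (log2 fold change -1.45, standard error 0.11, adjusted p = 6.65e-10, edgeR). *TMPRSS4* fell from 47.3 ± 1.32 to 27.5 ± 1.12 CPM (SD, n = 3 each). Matriptase, encoded by *ST14*, and prostasin, encoded by *PRSS8*, which form the main activating cascade at the epithelial surface, did not pass, with log2 fold changes of 0.09 (95% interval from -0.02 to 0.21) and -0.08 (95% interval from -0.21 to 0.06). Without control replicate 1 the value of *ST14* was 0.034.

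*SPINT1*, the inhibitor of matriptase, rose by a log2 fold change of 0.15 (adjusted p = 0.0268, edgeR), and *TMPRSS13* rose by 0.28 (adjusted p = 0.0342, edgeR). The call of *SPINT1* held in 3 and that of *TMPRSS13* in 1 of the 6 fits with 1 library left out, and *TMPRSS13* was not called in DESeq2 (adjusted p = 0.124). Without control replicate 1 their adjusted p values were 0.0762 and 0.0916 in edgeR, and *PRSS8* was then called lower (-0.15, adjusted p = 0.0393, edgeR).

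**Figure D4:**
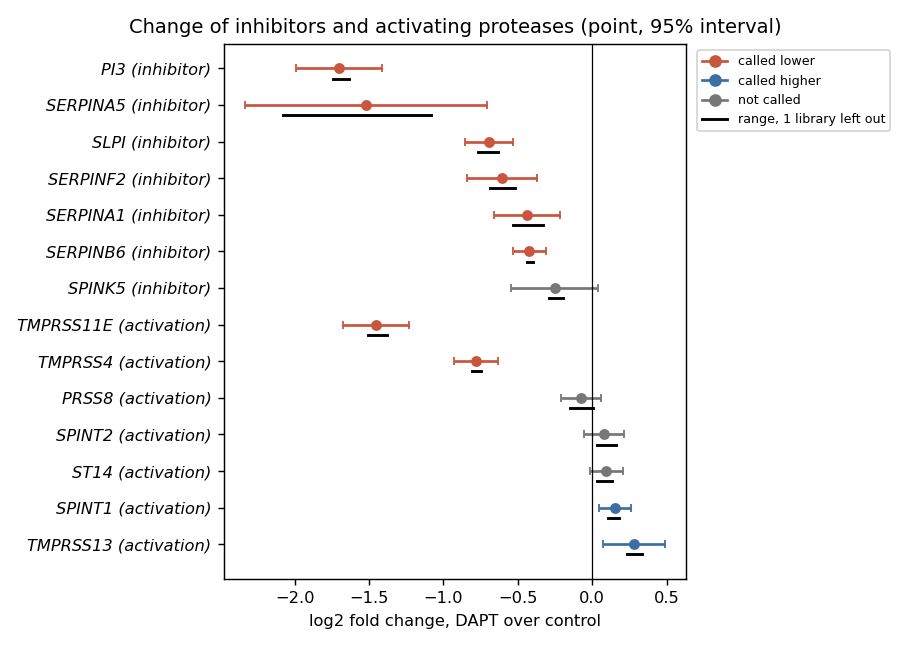
Log2 fold change of DAPT over control (horizontal axis) for the 7 tested inhibitors and the 7 tested genes of the activation list, with the 95% interval from edgeR's fit as a bar and, in black below it, the range over the 6 fits that left out 1 library. The 7 tested inhibitors all lie below 0, whereas genes of the activation list lie on both sides.

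Of 12 genes for reported substrates, 8 were tested, 2 were lower and 3 were higher, beside 18.0% lower and 17.2% higher among all genes. Without DAPT replicate 3 the count of lower genes was 1, and without DAPT replicate 1 the count of higher genes was 2. The proteins of the corneodesmosome, the junction cut when skin cells are shed, were scarcely transcribed: *DSG1* had 0 reads in every library, *CDSN* 2 to 7 reads and *DSC1* 6 to 13 reads. *IL1B*, whose precursor *KLK7* can cut, fell from 40.1 ± 1.05 to 29.3 ± 0.628 CPM, and *F2RL1*, a receptor activated by *KLK5* and other trypsin-like members, fell from 64.6 ± 1.10 to 55.8 ± 1.46 CPM (SD, n = 3 each). The call of *F2RL1* held in 5 of the 6 fits with 1 library left out. *SMPD1*, an acid sphingomyelinase, rose from 52.6 ± 3.72 to 84.2 ± 5.85 CPM, and *CDH1*, E-cadherin, from 512 ± 18.4 to 617 ± 14.2 CPM (SD, n = 3 each). *F2R*, *PLAUR* and *DSC1* did not pass, and the log2 fold change of *F2R* was -0.06 with all libraries and 0.31 without control replicate 1.

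Among the 5 genes outside the locus whose pattern over the 6 libraries was most like the mean of the 5 tested members were *SPC24*, *TTK*, *MAP3K4* and *ASCC3*, out of 10138 genes with a mean of at least 10 CPM. Likeness was the root mean square difference of log2 CPM centred on each gene's mean, which was 0.0189 for *SPC24* and 0.0233 for *ASCC3*. Each of these 4 had a log2 fold change between -0.41 and -0.36. *SPC24* and *TTK* act at the kinetochore. The averaged profile was at 0.20, 0.21 and 0.15 in the controls and -0.18, -0.19 and -0.18 with DAPT on that centred log2 scale. Likeness here therefore chiefly means a uniform, moderate decrease. This is a trait of the average and not of each member, as *KLK5* and *KLK6* were not called (log2 fold changes 0.00081 and -0.16).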

How the data were processed

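The authors trimmed single-end reads from a strand-marking kit and aligned them to GRCh38 by HISAT2. Per the file headers, the deposited counts are raw reads over exons from featureCounts 1.6.3 with strand setting 1 and the Ensembl release 96 annotation. The submitters' processing notes also list HTSeq and DESeq2. Reads that mapped to several places or overlapped several genes were not counted by the defaults. Depth is given in the report.

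Symbols came from GENCODE release 44 by gene ID (58472 of 58884 matched). Counts were analysed with edgeR 4.0.16 in R 4.3.3. Genes were kept by filterByExpr with a minimum count of 10, libraries were scaled by TMM, and the robust quasi-likelihood test was adjusted by Benjamini-Hochberg across 15001 genes, with calls at an adjusted p under 0.05. CPM are TMM-normalized. Standard errors were derived from the test statistic. Profiles of likeness used log2(CPM + 0.5). The procedure was tested on simulated counts. List counts under each alternative were added after seeing the data. Named genes were all members, the other cluster kallikreins, neighbours within 250 kb, *HES1* as a check, and the 5 most similar genes. Also named were the lists of inhibitors, activating and related proteases, and substrates (members called, with counts of the rest). Some genes that the rule names are not reported here. Members and lists were chosen with earlier results of these data known.

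The alternatives were DESeq2 1.42.0, limma-voom (limma 3.58.1), RLE, upper quartile and library-size scaling, no filter, a minimum of 10 reads required of each library, the test without robust estimation, a replicate block, each library left out, an adjusted p under 0.01 and a 2-fold limit.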

Additional observations from a re-analysis of the deposited data

How the results depend on the processing

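The number of members called lower was 3. It was 1 with DESeq2 and 1 at an adjusted p under 0.01 (*KLK10* in both), and 0 with a 2-fold limit. Among all tested genes, 18.0% were lower in the main fit, 14.5% in DESeq2 and 1.77% with the 2-fold limit. Leaving out 1 library gave between 2 and 3 members lower, beside 14.3% to 19.1% of all genes tested in those fits. Without DAPT replicate 3 the 3 were *KLK8*, *KLK10* and *KLK11*. In that fit the call of *KLK7* was lost (adjusted p = 0.0813, edgeR), and *KLK11* entered through a filter passed by control libraries alone. All other settings gave 3, beside 9.36% (no low-count filter) to 18.9% of all tested genes lower. No setting gave a member that was higher. Over all 15001 genes of the main fit, 5281 were called in either direction, 3338 at an adjusted p under 0.01 and 356 with a 2-fold limit. Between 4174 and 5618 were called with 1 library left out. Scaling by library size alone moved the median log2 fold change of all genes from 0.01 to 0.06 and gave 2156 lower and 3445 higher genes, against 2707 and 2574. The log2 fold change of *KLK5* was 0.00081 and changed sign with limma-voom (-0.037), RLE (-0.0033) and upper quartile (-0.0063) normalization, the replicate block (-0.0088) and without control replicate 1 (-0.016), control replicate 3 (-0.18) or DAPT replicate 3 (-0.33), and ranged from -0.33 to 0.25 with 1 library left out, each within its standard error of about 0.4. Without the low-count filter, *KLK9*, *KLK13* and *KLK14* had adjusted p values of 0.219, 1.00 and 0.561 in edgeR. The fit with the replicate block gave 3 members lower and 5295 genes called in all. Same-numbered libraries shared little beyond the number: the correlations of their deviations from the group means were 0.0245, 0.0442 and -0.0116 over 14199 genes. Replicates 1 and 2 each matched their own number best in both directions, while replicate 3 did not. Depth limits the members under about 20 reads per library, *KLK5* and *KLK11* included.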
